A study of Mus musculus with 3 samples.

Results

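Long noncoding RNA (lncRNA) locus probes are the probes of the array that target intervals of the mouse genome thought to give rise to lncRNAs, and they were chosen by their probe name, which starts with A_30_P, among the probes that are not controls. There were 16251 such probes of 55681 in all, each with 1 spot on the array. Of these, 16194 (99.6%) name a locus by chromosome, start, end, and strand, 57 name 1 of 12 known transcripts, and 0 carry a RefSeq accession, so the name of the class fits what the probes are labeled with. The comparison class was the 26108 probes that target RefSeq mRNAs (accessions starting with NM_), and the 587 probes of RefSeq noncoding RNAs (NR_) were set beside them. The probes were not chosen by any measured value.

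The arrays profile skin-resident macrophages, sorted by FACS as CD11b+Gr1- cells that carry the macrophage marker the labels call F480, from the backskin of CD1 mice at postnatal day 42 (P42), 55 (P55), and 69 (P69). Telogen is the resting phase of the hair follicle, and the study calls these ages its early (Te), mid (Tm), and late (Tl) stages, giving a slightly later day than the labels for Te. No treatment, transgene, or agent is named for these samples. RNA of 3 littermates was pooled per age and hybridized to 1 array per age in 1 color (Cy3), so there is 1 sample per group, no test between ages was possible, and every difference below compares arrays.

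lncRNAs are transcripts that are not translated into a main protein, are often spliced and polyadenylated, and include scaffolds of nuclear bodies and RNAs that silence neighboring genes on the chromosome they are made from. Many are expressed at lower levels and in fewer cell types than mRNAs, and some are hosts from which small RNAs are cut. In macrophages, lncRNAs are known among the transcripts that are switched on or off when the cells are activated.

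The probes fall into 4610 loci counted by strand, which lie in 3543 regions on 20 chromosomes (mm9). Of these regions, 1067 have probes on both strands, 3 have no strand, and 2101 (59.3%) overlap another region, so the loci are not independent of each other. A locus has between 1 and 10 probes (median 3), and a region spans between 62 and 7128487 bases (median 7304). The forward strand (F) holds 8171 probes and the reverse strand (R) 8010. The loci carry no gene symbol in the files, and they are given here by their mm9 coordinates.

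For some of the transcripts that have a name, promoter sequences are given as background and were not tied to the probe signals. The promoters of Xist, Kcnq1ot1, Tug1, and Malat1 (which the array calls NEAT2) are printed from 250 bases before to 50 bases after the transcript start (RefSeq, GRCm38.p6). All probes of the named Xist, Kcnq1ot1, and Tug1 transcripts were lower on both later arrays, and those of Malat1, shown beside them, pointed both ways. CG dinucleotides, which read the same on both strands, are in capitals.
Xist promoter, chrX:103483184-103483483, minus strand: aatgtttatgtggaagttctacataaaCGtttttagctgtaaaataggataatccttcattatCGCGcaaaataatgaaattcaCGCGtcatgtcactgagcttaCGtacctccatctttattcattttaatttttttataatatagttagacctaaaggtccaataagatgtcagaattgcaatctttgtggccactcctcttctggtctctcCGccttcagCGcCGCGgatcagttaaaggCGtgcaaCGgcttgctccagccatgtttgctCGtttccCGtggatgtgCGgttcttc
Kcnq1ot1 promoter, chr7:143296498-143296797, minus strand: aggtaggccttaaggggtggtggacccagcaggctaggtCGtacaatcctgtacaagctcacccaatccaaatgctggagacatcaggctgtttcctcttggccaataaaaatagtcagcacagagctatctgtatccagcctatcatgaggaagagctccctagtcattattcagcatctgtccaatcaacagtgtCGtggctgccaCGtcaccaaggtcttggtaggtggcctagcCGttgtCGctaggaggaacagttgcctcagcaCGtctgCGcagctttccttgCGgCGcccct
Tug1 promoter, chr11:3648765-3649064, minus strand: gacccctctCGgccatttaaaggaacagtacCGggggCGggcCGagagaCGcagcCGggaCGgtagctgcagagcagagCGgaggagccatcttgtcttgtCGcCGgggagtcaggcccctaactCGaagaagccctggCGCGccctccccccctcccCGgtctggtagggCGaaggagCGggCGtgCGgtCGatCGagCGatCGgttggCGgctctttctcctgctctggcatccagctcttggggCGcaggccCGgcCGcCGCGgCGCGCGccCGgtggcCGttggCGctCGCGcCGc
Malat1 promoter, chr19:5802623-5802922, minus strand: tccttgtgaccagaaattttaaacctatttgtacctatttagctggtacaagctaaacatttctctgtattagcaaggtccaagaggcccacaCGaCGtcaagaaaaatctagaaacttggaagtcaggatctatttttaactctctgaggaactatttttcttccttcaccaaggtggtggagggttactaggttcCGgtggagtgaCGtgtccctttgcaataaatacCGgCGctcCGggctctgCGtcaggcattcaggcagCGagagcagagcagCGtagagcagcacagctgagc
The Tug1 promoter holds 37 CG dinucleotides, and 95.0% of the 32851 promoters of this length hold as many or fewer. The Xist, Malat1, and Kcnq1ot1 promoters hold 15, 10, and 9, against a median of 7, and 94.6% of all promoters hold at least 1. H19, the named transcript whose mean was above P42 on both later arrays, is the host of miR-675, and its mature forms (RefSeq, GRCm38.p6) are printed with the seed, bases 2 to 8, in capitals. The arrays do not measure these small RNAs here.
miR-675-5p, chr7:142577112-142577133, minus strand: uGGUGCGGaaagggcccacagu
miR-675-3p, chr7:142577078-142577099, minus strand: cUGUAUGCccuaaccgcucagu

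Signals are given as log2 of the scanner software's intensity minus the log2 of the array's 75th percentile, and a probe counts as detected when the software calls it well above background. Over all probes, 71.4%, 59.6%, and 68.7% were detected at P42, P55, and P69, no spot was saturated, and the SD of the difference between 2 arrays from repeated spots alone was between 0.17 and 0.19. The table of processed log2 values assigns the P55 and P69 arrays the other way round: its P55 column matches the scanner file of P69 for 100% of the lncRNA locus probes within 0.05, and the reverse. Each scanner file is kept with the sample it was deposited for, and under the other assignment every P55 value below exchanges with the P69 value beside it and a difference between P55 and P69 turns its sign. The macrophage markers were all detected (14 of 14 on each array), and so were all 15 keratinocyte markers. Endothelial (5 of 5) and T cell markers (4 of 4) were detected on each array too. At P42, P55, and P69, 7, 6, and 8 of 8 fibroblast markers and 4, 5, and 5 of 5 melanocyte markers were detected. Of the keratinocyte markers 14 were higher at P69 and 15 at P55 than at P42 (median 2.88 and 3.25), and their summed level in log2 was 8.12, 8.65, and 8.05, most of it from 1 bright probe of Trp63. Of the macrophage markers 3 and 4 were higher (median -0.43 and -0.50), with a summed level of 9.88, 9.67, and 9.13, and without scaling their median was 0.74 and -0.24. At P69 and P55 the medians were -0.21 and -0.85 for fibroblast and -0.19 and -1.13 for endothelial markers. They were 1.88 and 1.58 for melanocyte and 0.43 and 0.71 for T cell markers. Without scaling the fibroblast and endothelial medians were 0.95 and 0.98 at P69 and -0.74 and -0.86 at P55. The part of these shifts in the results for the lncRNA locus probes was not tested. In pooled cells a lower signal from fewer cells of a type cannot be told apart from less RNA per cell.

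lncRNA locus probes were detected less often than mRNA probes on every array, and the gap was widest at P55. At P42 10858 of the 16251 probes (66.8%) were detected, at P55 8073 (49.7%), and at P69 9997 (61.5%). mRNA probes were detected at 76.6%, 69.5%, and 76.6%. The share of lncRNA locus probes thus differed by 17.1 percentage points between P42 and P55, where that of mRNA probes differed by 7.05. For probes of Ensembl transcripts, predicted RefSeq transcripts (XM_), and full-length cDNA clones (AK), the difference was 16.9, 15.1, and 14.2 points. The 587 RefSeq noncoding RNA probes lay between the lncRNA locus and mRNA classes, at 68.8%, 55.2%, and 67.3%. Although lncRNA locus probes are 29.2% of all probes, they gave 12.7%, 11.8%, and 12.8% of the summed signal of the 3 arrays.

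Across the arrays, 7363 lncRNA locus probes (45.3%) were detected on all 3 and 4265 (26.2%) on none, whereas for mRNA probes the shares were 65.2% and 16.6%. Among probes detected on 1 array only, P42 led. Detection at P42 alone was found for 1539 lncRNA locus probes (9.47%), at P69 alone for 649 (3.99%), and at P55 alone for 219 (1.35%). For mRNA probes, 4.90% were detected at P42 alone. A further 1725 lncRNA locus probes were detected at P42 and P69 but not at P55, the array with the fewest detected probes of every class.

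Signals of lncRNA loci were lower on both later arrays than at P42, when each array was scaled to its own 75th percentile, whereas those of mRNA were higher in the median. Of 9088 lncRNA locus probes detected at both P42 and P69, 6948 (76.5%) were lower at P69, with a median log2 change of -0.76 and a middle 50% from -1.37 to -0.05. Over all probes, 57.4% were lower, and the median was -0.23. Of the 18505 mRNA probes 42.8% were lower, and their median was 0.21. The medians of both classes were thus 0.96 apart on the log2 scale. The decrease was not particular to lncRNA loci. Probes of predicted RefSeq transcripts (XM_), Ensembl transcripts, and cDNA clones (AK) had medians of -0.75, -0.74, and -0.82 at P69.

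The P55 array gave the same picture. Of 7594 lncRNA locus probes detected at P42 and P55, 5225 (68.8%) were lower at P55 (median -0.57), against 49.9% of all probes (median 0.00) and 38.3% of mRNA probes (median 0.37). The difference between the medians of the classes was -0.94. From P55 to P69, by contrast, the 2 classes did not separate. The median was -0.15 for lncRNA locus probes and -0.16 for mRNA probes, and 58.7% of lncRNA locus probes were lower, against 60% of all probes. These comparisons share arrays, so they are not independent of each other.

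The direction of the median depends on how the arrays are scaled, but the distance between the classes does not depend on a constant for each array. Without scaling, the median of all probes was 0.93 at P69 and 0.27 at P55, and that of lncRNA locus probes was 0.41 and -0.31, so at P69 the sign turned and 33.2% of them were lower. With the median of each array as the reference it was -0.24 and -0.01, beside 0.29 and 0.56 for all probes. With the 75th percentile taken over the probes that all arrays detected, the mRNA median was 0.00 on both arrays, so their increase was lost there, and that of lncRNA locus probes was -0.96 and -0.94. Such a constant shifts every probe and locus below by the same amount. In each of these scalings the lncRNA locus probes lay 0.96 and 0.94 below the mRNA probes at P69 and P55.

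Probes detected on all 3 arrays allow the same set to be followed. Over these 7363 lncRNA locus probes the median change from P42 was -0.59 at P55 and -0.70 at P69. Of them 63.3% were lower than at P42 on both later arrays. For the 17013 mRNA probes detected on all arrays the medians were 0.38 and 0.28, and 29.5% were lower on both.

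Since lncRNA locus probes are dimmer on average, the classes were also compared within bins of mean signal over the 3 arrays. The separation was found in the middle of the signal range. Among probes with a mean signal between 0 and 1, the 756 lncRNA locus probes had a median change of -0.69 at P69 and the 2628 mRNA probes 0.46, a difference of -1.15. In the bins between -3 and 2, the difference ranged from -0.77 to -1.15 at P69 and from -0.52 to -1.13 at P55. Below -4 it was -0.05 and -0.02, and above 4 it was 0.03 and -0.03. The lowest detected levels were -4.44, -4.04, and -5.01 at P42, P55, and P69. Probes below -4 thus had little room to differ between arrays, and that bin cannot show whether the classes separate. Between P55 and P69 it stayed between -0.14 and 0.13 in all 9 bins.

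Changes of at least 10-fold, the threshold in the methods of the study, were mostly decreases among lncRNA loci. At P69, 163 of the 11475 lncRNA locus probes with a value (1.42%) were at least 10-fold lower than at P42, against 0.838% of all probes and 0.397% of mRNA probes. Only 5 (0.0436%) were at least 10-fold higher, against 0.367% of all probes and 0.661% of mRNA probes. In the other classes the share at least 10-fold lower was 1.32% (XM_), 0.797% (Ensembl), 1.2% (AK), and 1.85% (RefSeq noncoding RNA). For 87 of the 163 and 4 of the 5 the fold is a lower bound, because the dimmer array did not detect the probe. The bound is taken against the lowest detected signal of that array or the probe's own signal there, whichever is higher. The counts of higher and lower probes were 41 and 105 after quantile normalization, 26 and 72 with the array median as reference, and 85 and 24 without scaling, where increases were the more frequent.

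At P55, 62 of 11135 lncRNA locus probes (0.557%) were at least 10-fold lower than at P42 (27 of them bounds) and 12 (0.108%) were higher (7 bounds). Over all probes 0.427% were lower and 0.627% higher, and among mRNA probes 61 (0.295%) were lower and 214 (1.03%) higher. The counts of higher and lower lncRNA locus probes were 64 and 49 after quantile normalization, 39 and 16 with the array median, and 16 and 39 without scaling, so the more frequent direction at P55 depends on the scaling. From P55 to P69, 14 lncRNA locus probes of 9293 (0.151%) were at least 10-fold lower and 1 (0.0108%) was higher, against 0.134% and 0.0436% of all probes.

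Some of the probes that were at least 10-fold lower at P69 lay close together in the genome. When probes within 1 Mb of each other were joined, they fell into 78 stretches, and 5 stretches with 5 or more such probes held 58 of the 163 (35.6%). Of all lncRNA locus probes with a value, 105 (0.915%) lay in these 5 stretches. The stretches were picked by these values, so their shares and medians are a description. The stretch at chrX:120353972-123307974 held 25 such probes of 13 loci. Of its 49 probes with a value 48 were lower at P69, with a median of -3.32, and the median at P55 was -2.22. At chr7:66874527-67050575, 12 of 12 probes were lower at P69, with a median of -4.11 at P69 and -2.08 at P55. At chr5:14943275-15223375, 25 of 25 were lower, with medians of -3.11 and -3.03.
Of the remaining stretches, chr8:73663222-74384150 had 10 of 10 probes lower (median -3.32 at P69 and -2.45 at P55) and chrX:92119889-92157256 had 9 of 9 (-3.35 and -2.66). The stretch on chromosome 5 thus differed from P42 by nearly the same amount at P55 as at P69, whereas the one on chromosome 7 was lower at P69 than at P55 in the median. These medians include lower bounds. The lowest detected level was -4.04 at P55 and -5.01 at P69, so the sizes at both ages are not fully comparable. Overlapping loci in these stretches may share sequence, and the probe sequences were not used here.

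The largest decreases measured on both arrays were led by chr7:67001975-67050575_F, which is read by 5 probes. These were at 1.96, 2.95, 3.29, 3.37, and 4.30 at P42, at -0.07, 0.89, 1.19, 1.05, and 1.96 at P55, and at -2.68, -1.15, -0.47, -0.75, and -0.71 at P69, in the same order of probes. No level at P69 reached the lowest level at P42, and the mean change was -4.33 ± 0.50 (SD over 5 probes) at P69 and -2.17 ± 0.15 at P55. SDs over probes of 1 locus show how far its probes differ and say nothing of the spread between mice. The strongest probe was lower by 32.3-fold.

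At chrX:31867450-32124664_F, all 3 probes differed by nearly the same amount. Their levels were 0.21, 1.24, and 2.42 at P42, -3.09, -2.67, and -0.74 at P55, and -4.25, -3.12, and -2.09 at P69, a mean change of -4.44 ± 0.08 at P69 and -3.45 ± 0.39 at P55 (SD over 3 probes). At chr8:74333475-74384150_F the probes were less alike. The 5 probes lay between 0.44 and 1.08 at P42 and between -4.16 and -0.21 at P69, and the change ranged from -5.00 to -1.09. Further probes of this group were those at chrX:120812236-121038407_R (-4.61), chr15:61984389-62102500_R (-4.59), chr5:14988715-14989311_F (-4.50), and chr2:176296720-176297353_F (-4.35). The other probes of the chromosome X locus were lower by 10.9-fold and by at least 12.8-fold. Those of the chromosome 5 locus were lower by at least 28.5-fold and 34.3-fold. At chr15:61984389-62102500_R the change of the 7 measured probes ranged from -4.59 to -0.41, so its strongest probe stood apart.

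Several loci, or single probes of loci, that were detected at P42 were no longer detected at P69. The 3 probes of chr5:26333765-26338143_F were at -0.20, -0.20, and 0.12 at P42, at -3.47, -2.53, and -2.67 at P55, and below detection at P69, which makes each of them at least 28.1-fold lower. The 3 probes of chr5:79860066-79860625_F were between -0.69 and 0.84 at P42, 1 of them was detected at P55, and none at P69, with folds of at least 20.1, 31.1, and 58.0. At chrX:123295327-123300036_F the folds were at least 14.3, 15.7, and 62.4. At chr5:14988715-14989311_F the probe with the largest bound was at least 34.3-fold lower, while 1 of its 3 probes was still detected at P69. The largest bounds at chrX:123303474-123305531_F and chr7:66874527-67012170_R were 34.2-fold and 33.2-fold, and at the latter locus 1 of 2 probes was detected at P42. In all, 27 loci had at least 2 probes of the same strand that were 10-fold lower, and none had 2 that were 10-fold higher.

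Few lncRNA loci were higher at P69 by a like amount. The locus with the largest measured increase was chr2:36112819-36114110_F. Its 3 probes were at -2.90, -2.19, and -1.83 at P42, at 0.39, 0.83, and 1.15 at P55, and at 0.80, 0.96, and 0.97 at P69. Both later arrays lay above P42 with every probe, and the mean change was 3.09 ± 0.17 at P55 and 3.22 ± 0.45 at P69 (SD over 3 probes). The locus at chr14:21460230-21461364_F was higher too, with its 3 probes between -4.10 and -2.14 at P42, between -1.36 and -0.97 at P55, and between -1.22 and -0.94 at P69 (mean change 2.24 ± 1.08 at P69). At chr4:11893711-11921443_F the 3 probes were higher by 1.77 ± 0.93 at P69 and by 2.25 ± 0.46 at P55.

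At other loci the probes differed more among themselves. At chr8:113968152-113973727_F all 5 measured probes were higher at P69, by between 0.40 and 3.07 (mean 1.52 ± 1.08). At chrX:90997595-91009570_R the changes of the 9 measured probes ranged from -1.34 to 3.27 (mean 0.54 ± 1.56), and at chr17:71183978-71185384_F those of the 3 probes ranged from -0.60 to 3.20 (mean 1.37 ± 1.90). The probe with the largest increase at chr3:85571525-85645700_F changed by 3.05 at P69 and 4.26 at P55. The mean change over the 3 probes of this locus was 0.55 ± 2.22 at P69. At chr3:86827945-86886695_R the 4 measured probes ranged from -1.12 to 3.00. Among probes not detected at P42, that at chr1:195327945-195336595_F was at least 17.4-fold higher at P69, yet its other 4 probes had changes between -1.61 and 0.59. The bounds at chr11:59206727-59207172_R, on both strands of chr11:97505439-97522274, and at chr14:21437920-21464655_F were 11.5-fold, 11.4-fold (F), 11.3-fold (R), and 9.88-fold.

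The brightest lncRNA locus probes were those of 1 stretch of chromosome 17. No locus was matched to a gene by position, so which RNA these probes read, and whether it is an lncRNA, was not determined. Of the 10 probes with the highest mean signal, 8 lie at chr17:39960567-39992817 (both strands) or at loci inside it, chr17:39979941-39981793_R, chr17:39982023-39983277_F, and chr17:39983902-39985688_F. The top probe was at 9.07, 8.82, and 7.87 at P42, P55, and P69. The probes of the 5 loci were lower by 0.82 to 1.31 in the mean at P69 and had mean changes between -0.39 and 0.10 at P55. The other 2 probes were single bright ones at chr7:118248833-118267766_F (9.36, 7.48, and 7.51) and chr11:60728207-60745369_R (8.81, 8.02, and 7.38). At the latter locus the other 4 probes were at or below -3.17 on every array, so only 1 of its 5 probes was bright.

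Probes of both strands were alike in detection and in median change. At P42, 67.3% of F probes and 66.4% of R probes were detected, and the median change at P69 was -0.76 and -0.75. Of the 1067 regions with probes on both strands, both strands were detected in 957 (89.7%) at P42, 767 (71.9%) at P55, and 882 (82.7%) at P69. In 852 regions with a measured change on both strands, the sign was the same in 718 (84.3%) at P69, with a Pearson r of 0.54 between the strands' mean changes across regions, and at P55 in 561 of 729 (77.0%, r = 0.53). Of all measured lncRNA locus probes 76.5% were lower at P69 and 68.8% at P55, so many regions would share a sign without any link between their strands. The count of shared signs also moves with the scaling of the arrays. Both strands share the arrays, and regions that overlap are not independent. The labeled cDNA was amplified before it was labeled, and whether a signal comes from the named strand was not tested.

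Probes of the same locus differed among themselves. In the 1421 loci with at least 3 probes measured at P42 and P69, the median SD of the change within a locus was 0.59, more than the 0.19 that repeated spots give, and the SD between locus means was 0.83. All measured probes were lower at P69 in 693 of these loci (48.8%) and higher in 96 (6.76%), and in 632 (44.5%) they pointed both ways. At P55 all were lower in 421 of 1137 loci (37.0%) and higher in 127 (11.2%).

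The shortest loci were the least detected. When probes were split into 4 groups by the length of their region, those of the shortest (62 to 5176 bases) stood apart. In this group 58.6%, 37.8%, and 51.0% were detected at P42, P55, and P69, and the median change was -0.97 at P69 and -0.76 at P55. In the 3 groups with longer regions, between 69.0% and 69.9% were detected at P42, and the median change at P69 was between -0.59 and -0.77. By chromosome the median at P69 ranged from -0.58 on chromosome 6 to -0.96 on chromosome 15, so it was below 0 on all 20. Chromosome X held 38 of the 163 probes that were at least 10-fold lower, chromosome 5 held 19, and chromosome 7 held 15. Of all 16251 lncRNA locus probes, these chromosomes held 577, 967, and 731. On chromosome X, 25 of the 38 lay in the stretch at chrX:120353972-123307974 described above.

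The 57 probes with a transcript name read 12 named lncRNAs, and most of these probes were lower on the later arrays. At P69, 30 of 36 measured probes (83.3%) were lower, with a median of -0.78, and at P55 27 of 34 (79.4%), with a median of -0.97. Neither array had a named probe that was 10-fold lower or higher than P42. These shares lie beside 57.4% and 49.9% of all probes, and 76.5% and 68.8% of all lncRNA locus probes.

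Among transcripts that silence genes in cis, XIST, which coats the inactive X chromosome in female cells, was lowest at P55. Its 5 probes were at 0.44, 1.16, 1.46, 2.19, and 2.24 at P42, at -1.55, -0.77, 0.14, 0.52, and 0.65 at P55, and at -0.44, 0.19, 0.62, 1.44, and 1.45 at P69. Every probe was below its P42 level on both later arrays, by 1.70 ± 0.27 in the mean at P55 and 0.84 ± 0.08 at P69, and higher at P69 than at P55 by 0.86 ± 0.23 (SD over 5 probes). The 2 RefSeq probes of Xist had changes of -0.90 and -0.32 at P69 and of -1.09 and -1.18 at P55. TSIX, its antisense partner that represses it, was not well above background with any of 5 probes on any array.

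KCNQ1ot1, an imprinted antisense RNA that silences its neighbors on the paternal chromosome, was at -0.03 to 3.66 at P42 with 5 probes. At P55 they ranged from -1.47 to 3.36 and at P69 from -1.49 to 2.81. All 5 were lower on both later arrays, by 1.25 ± 0.24 in the mean at P69 and 0.74 ± 0.49 at P55. A RefSeq probe of the same RNA, detected at P42 and P69, had a change of -3.04. Another was at least 14.9-fold lower at P69, so the size of the difference varies between probes. Airn, another imprinted silencing RNA, has a RefSeq probe with changes of -1.20 at P69 and -1.66 at P55.

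H19, an imprinted RNA of growing tissues and the host of the miR-675 forms printed above, was an exception to the direction of the others. Its 5 probes were at -3.61, -2.85, -2.17, -2.14, and -1.85 at P42 and between -3.07 and -1.02 at P69. Of them 4 were higher than at P42 on each later array, and the mean change was 0.70 ± 0.67 at P69 and 0.84 ± 1.28 at P55 (SD over 5 probes). With this spread over probes the size of the change is poorly fixed. The probe in the other direction had changes of -0.13 at P69 and -1.30 at P55.

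Of the RNAs of nuclear bodies, NEAT1, the scaffold of paraspeckles, had the same order of arrays as XIST. The 5 probes were at 0.36, 1.55, 2.52, 3.38, and 3.46 at P42, at -0.94, -0.36, 0.59, 1.73, and 1.58 at P55, and at 0.68, 0.75, 1.51, 2.61, and 2.68 at P69, in the same order of probes. All 5 were lower at P55 than at P42 (mean -1.73 ± 0.26) and all 5 higher at P69 than at P55 (1.13 ± 0.30), and at P69 4 of 5 were below P42 (-0.60 ± 0.53). The RefSeq probe of Neat1 gave -1.94 at P55 and -0.88 at P69. NEAT2, now Malat1, an abundant RNA of nuclear speckles, had changes of -0.37 ± 0.72 at P69 and -0.05 ± 0.71 at P55 with 3 probes, which pointed both ways. Its RefSeq probe had changes of 0.28 at P69 and 0.69 at P55.

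TUG1, a widely expressed lncRNA first found in the retina, was lower with all 5 probes on both arrays, by 0.59 ± 0.37 at P69 and 0.75 ± 0.36 at P55. The probes lay between -0.10 and 0.73 at P42 and between -0.48 and 0.06 at P69, so the ranges overlap. The 3 RefSeq probes of Tug1 did not all point one way at P69, with changes of -1.43, -0.88, and 0.86. At P55 their changes were -1.54, -0.98, and -0.40. lincP21, a target of p53, was detected with 4 of 5 probes at P42, 2 at P55, and 4 at P69, and the 4 measured at P69 were lower by 0.84 ± 0.56. NRON, which holds the transcription factor NFAT in the cytoplasm, was detected with 2 of 5 probes on each array. Its changes at P69 were -1.01 and -0.69.

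The other named transcripts had few detected probes. HOTAIR, which is transcribed from the HoxC cluster, had 2 of 5 probes detected at P42 and 1 on each later array, with a change of -1.81 at P69 and -1.61 at P55. PINC, an RNA of the mammary gland in pregnancy, was detected with 3 of 5 probes at P42 and none later, and the bounds at P69 were at least 2.20-fold, 2.74-fold, and 4.06-fold lower. BRN1-A had 1 of 4 probes detected, at 0.16, -1.06, and -1.80.

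These directions also rest on the scaling. Without scaling, the mean at P69 turned positive for XIST (0.32), NEAT1 (0.56), TUG1 (0.58), NEAT2 (0.80), NRON (0.31), and lincP21 (0.32), and it was -0.09 for KCNQ1ot1, while at P55 XIST and NEAT1 stayed below P42 (-1.44 and -1.47) and NEAT2 was at 0.21. With the median of each array as the reference, NEAT2 was positive at P69 and P55 (0.15 and 0.51) and NRON at P55 (0.15), which was also positive after quantile normalization (0.05), and 2 of 5 KCNQ1ot1 probes were lower at P55 in place of all 5. H19 was above P42 in the mean in each scaling on both arrays, by between 0.49 and 1.86 at P69 and between 0.47 and 1.40 at P55. XIST and NEAT1 were higher at P69 than at P55 with all 5 probes in each of the scalings run.

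Further noncoding RNA genes were taken from a list of 62 symbols, of which 33 have a RefSeq-named probe on this array outside the lncRNA locus class. Of these 5 are named transcripts described above (Xist, Kcnq1ot1, Neat1, Malat1, and Tug1), which leaves 28 genes. At P69, 16 of the 25 with a value (64%) were lower and 9 higher, with a median of -1.04, beside 57.4% lower among all probes and 67.5% among RefSeq noncoding RNA probes. At P55, 11 of 20 measured genes (55%) were lower, with a median of -0.13, beside 49.9% and 58.5%. Of the 9 genes that were higher at P69, 4 were small nucleolar RNA host genes. The others were Sra1, which is named through an mRNA accession here (1.22), Ftx, Mir17hg, Peg13, and Pvt1. Snhg1, Snhg3, Snhg6, and Snhg12, which carry small nucleolar RNAs in their introns, were higher by 1.43, 0.33, 1.63, and 0.44 at P69 and by 1.81, 1.39, 1.29, and 0.38 at P55. Snhg17 had changes of -1.53 and -1.19, and the same 4 genes were the higher ones in each of 5 scalings on both arrays. By the brightest probe of each of the 28 genes, Dlx6os2 had the largest decrease at P69 (-3.83, 14.2-fold lower). It is an antisense RNA of a homeobox locus. Mir22hg, the host of miR-22, had changes of -1.67 at P69 and -2.40 at P55.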

How the data were processed

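Per the labels, total RNA of sorted macrophages was amplified as a whole transcriptome, labeled with Cy3 without an enzyme, and hybridized to an Agilent mouse gene expression array. Amplified cDNA can carry both strands. For each of the 3 arrays the authors deposited linear spot intensities as Feature Extraction 10.7.3.1 gave them after background correction, with no normalization between arrays. A second deposited table, of the authors' processed log2 values, is centered to a median of 0 per probe and is restricted to probes with a range of at least 1. Its scale is log2, its direction over P55 and P69 is the reverse of the scanner files, and its normalization is not given in the sources used here. It holds 10945 lncRNA locus probes, with column medians of 0.36, 0, and 0.

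Outlier spots were left out (162 at P42, 274 at P55, and 281 at P69), spots of a probe averaged, and log2 of the processed intensity set against the array's 75th percentile. Between 3 and 5 lncRNA locus probes per array had no value. Detection required the software's call of well above background for a share of spots of 0.5 or more. The 75th percentile was 16.5 to 32.3 times the lowest detected signal. The number of arrays limits the precision. The error of repeated spots was an SD of 0.12 to 0.14 in log2, from probes with at least 10 spots.

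Loci are named with mm9 coordinates as the files give them, and the gene table used for RefSeq names is of GRCm38.p6, so no locus was matched to a gene by position. Symbols were found for 26056 probes, and each listed gene is represented by its brightest probe where genes are counted. Of the 12 transcript names, 10 matched a current symbol. Named loci are the 10 probes with the highest mean signal, the 10 largest increases and the 10 largest decreases at P69, the 5 largest bounds each way, and up to 5 loci with several probes changed. Loci on chromosome 18 were counted and not named. The members, gene lists, and tests were chosen with earlier results of these data known. The alternatives were other scalings, background corrections, filters, thresholds, and units. Calculations used Python 3.11.15, numpy 2.4.6, pandas 2.3.3, R 4.3.3, and limma 3.58.1 (normexp), and the steps were tested on simulated data.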

Additional observations from a re-analysis of the deposited data

How the results depend on the processing

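No paired analysis was possible because each age has 1 array and the labels carry no replicate numbers, and no array could be left out. In 11 alternatives the median change of lncRNA locus probes stayed below 0 at P55 in 11 and at P69 in 10. It reversed at P69 without scaling (0.41), and at P55 it was -0.31 there. It was -0.96 at P69 and -0.94 at P55 with a 75th percentile taken over the probes that all arrays detected, -0.44 and -0.35 after quantile normalization, -0.24 and -0.013 with the array median, and -1.08 and -1.16 in the value table, which holds only probes that vary. The distance to mRNA probes, whose alternatives were added after the data had been seen, was below 0 in all 11 at both ages. A constant per array cannot change it, so the percentile over detected probes, the array median, and no scaling gave no check. The other assignment of the arrays only exchanges the values of both ages. The distance was -0.77 at P69 and -0.73 at P55 after quantile normalization, and -0.72 at P69 without a filter on dim probes. It was -0.69 at P55 with normexp (offset 50), and -2.11 and -1.69 in the value table.

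Counts of 10-fold changes moved with most choices. In the order higher and lower at P69, then higher and lower at P55, the main counts were 5, 163, 12, and 62. They became 41, 105, and 64 after quantile normalization (the last count stayed within 1.5 times), 26, 72, 39, and 16 with the array median, 0, 36, 0, and 8 with normexp, 1, 76, 5, and 35 with detection on both arrays, 48, 696, 83, and 532 both with the positive and significant call and without a filter, 12, 62, 5, and 163 with the other assignment of the arrays, 83, 530, 48, and 697 in the value table, 61, 790, 94, and 518 at 5-fold, and 0, 43, 0, and 12 when loci were counted. Without scaling 85 were higher and 24 lower at P69, and 39 lower at P55. With the percentile over probes detected on all arrays 2 were higher at P69, 3 higher at P55, and 158 lower at P55. More probes were lower than higher at P69 in each of these except without scaling. The cause of these moves was not tested, apart from the looser and stricter thresholds, filters, and units themselves. Detected probes numbered between 9310 and 13755 at P42, 6521 and 11357 at P55, and 8073 and 13002 at P69. Signal over background was lowest at P55, the array with the fewest detected probes, and its part in that was not tested.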

Other observations

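Several other probe classes had medians below 0 too. The median change of 3129 measured probes of predicted RefSeq transcripts (XM_) was -0.75 at P69, that of 1786 Ensembl transcript probes -0.74, and that of 770 probes of full-length cDNA clones (AK) -0.82, beside -0.76 for the lncRNA locus probes and 0.21 for mRNA probes. At P55 these medians were -0.44, -0.49, and -0.72, beside -0.57 and 0.37. The RefSeq noncoding RNA probes lay between the lncRNA locus and mRNA classes, with medians of -0.52 at P69 and -0.25 at P55, and 1.85% of them were at least 10-fold lower at P69, beside 1.42% of the lncRNA locus probes. Detection of the cDNA clone probes was lower than that of the lncRNA locus probes, at 54.8%, 40.6%, and 51.4%. That of Ensembl transcript probes was slightly lower too, at 65.3%, 48.4%, and 60.6%. Probes of predicted transcripts were detected at 66.7%, 51.6%, and 60.5%, beside 66.8%, 49.7%, and 61.5% of the lncRNA locus probes.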
